A study of Mus musculus with 39 samples.

Results

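The interferon-induced antiviral effectors described here are 10 genes: the RNA-binding proteins Ifit1, Ifit2 and Ifit3, the radical-SAM enzyme Rsad2 (viperin) with its neighbour Cmpk2, the cytoplasmic protein Ifi44, and the ISG15 system of Isg15, Ube2l6, Herc6 and Usp18. They were chosen by symbol, and each had 1 row in each of 3 dendritic cell (DC) count tables and in the T cell table, so they are 10 of 24689 distinct symbols in the DC tables. The study injected C57BL/6 mice, 8 to 12 weeks old, subcutaneously at the hock with nanoparticles and sequenced sorted cells of the popliteal and inguinal lymph nodes by a 3' counting method with molecular barcodes. The particles carried CpG, a bacterial-type DNA that serves as adjuvant, together with the model antigen OVA, with the unrelated protein BSA or with no protein, and the design text also names a rhodamine dye (6G). DC were enriched by negative selection and then sorted. The study's question was how DC respond when they meet T cells specific for their antigen.

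Type I interferon binds the receptor Ifnar1/Ifnar2, whose kinases activate a transcription factor complex that contains Irf9. The complex binds interferon-stimulated response elements in the promoters of antiviral genes. IFIT proteins bind foreign RNA and block its translation, viperin turns CTP into a nucleotide that ends the chains of viral RNA polymerases, and ISG15 is a small ubiquitin-like protein that is coupled to other proteins. In plasmacytoid DC and other cells, CpG DNA sensed by Tlr9 is a known trigger of type I interferon.

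Promoter windows from RefSeq (build GRCm38.p6, 250 bases before to 50 after the start) were found for 9 of the 10 genes, and Usp18 had no entry. The core of the interferon-stimulated response element was searched as GAAA, any 2 bases and GAAA again, on either strand, and occurred in 4 of the 9 genes, against 3.99% of the 27025 genes in the table. The 4 stretches with a match are printed because they carry the element that the pathway is known for, with matches in capitals, 5′ to 3′ on the strand of the gene. They lie at chr19:34640767-34640831 (plus strand) for Ifit1, chr19:34583355-34583434 (plus) for Ifit3, chr12:26456545-26456590 (minus) for Rsad2 and chr4:156200857-156200914 (minus) for Isg15, all of them before the transcription start.
Ifit1: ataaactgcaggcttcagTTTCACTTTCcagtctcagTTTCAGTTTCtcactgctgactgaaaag
Ifit3: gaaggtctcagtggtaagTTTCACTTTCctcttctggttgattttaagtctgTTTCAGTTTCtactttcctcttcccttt
Rsad2: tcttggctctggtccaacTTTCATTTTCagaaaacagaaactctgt
Isg15: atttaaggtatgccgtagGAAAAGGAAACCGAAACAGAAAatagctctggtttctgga
Ifit1 and Ifit3 each held 2 separate matches, all on the opposite strand, and Isg15 held 3 overlapping ones. Ifit2, Cmpk2, Ifi44, Herc6 and Ube2l6 held no match to this core in these windows. The core of the gamma-activated sequence (TTC, any 3 bases and GAA) was also searched. It occurred in 1 of the 9 genes, Ifit2, against 9.55% of all genes.

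The time course held 2 libraries each of wild-type DC taken 24 h and 12 h after OVA-CpG particles, 24 h and 12 h after CpG-only particles, and from mice that were not immunized. The costimulation experiment, all at 12 h, held 2 libraries each of DC from Cd80/86 -/- mice given OVA particles and OT cells (transferred T cells with a receptor for OVA), and of wild-type DC with OVA and OT cells, with BSA and OT cells, and with OVA alone. The 20 h experiment held 5 libraries each of wild-type DC after OVA-CpG particles, after BSA-CpG particles and without immunization, and the T cell table held 3 libraries each of CD4+ OT-II T cells from mice given OVA-CpG or BSA-CpG particles. The series describes mice that had received OT-I and OT-II cells, but the labels of the time course and of the 20 h DC do not say it of each sample. The labels do not say whether replicates are separate mice, and the p-values therefore reflect only how these libraries vary, which may be technical.

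Libraries held 612017 to 1329203 counts in the time course, 628404 to 1621784 in the costimulation experiment and 367209 to 2052904 in the 20 h experiment, and levels are given as CPM, a count divided by its library total and multiplied by 1000000. The T cell libraries correspond to 423594 to 1316341 counts with OVA and 155088 to 402391 counts with BSA, so depth there differs between the groups. These totals cover only the 7830 genes listed for T cells, and whether reads or molecular barcodes were counted is not stated. The DC marker Flt3 was present in every DC library and H2-Aa, a chain of MHC class II, stood at 716 CPM or more. Time-course DC also carried T cell markers (13 genes, summed to 2004 to 4555 CPM in immunized and 6429 to 6775 CPM in non-immunized DC), which stood at 105 to 537 CPM in the costimulation experiment. In the non-immunized time-course DC, conventional DC markers summed to 2627 to 4314 CPM, below the T cell markers. The DC marker Zbtb46 stood at 0.815 and 2.69 CPM there. The purity of this reference group is therefore not known. Of the 2 costimulatory genes named in the knockout genotype, Cd86 stood at 37.4 and 48.5 CPM in the knockout libraries, against 81.5 and 82.6 CPM in wild type with OVA and OT cells, and Cd80 at 4.23 and 12.4 CPM, against 10.0 and 11.4 CPM. Where the counted tags lie relative to the deleted parts is not known, so these values do not check the genotype.

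All 10 genes rose in each of the 4 immunized groups of the time course relative to non-immunized DC, in edgeR's quasi-likelihood test with Benjamini-Hochberg adjustment over 9428 genes. Of all genes tested, 10.1% were called higher with OVA at 24 h, 9.29% with OVA at 12 h, 7.42% with CpG-only at 24 h and 11.3% with CpG-only at 12 h (called means adjusted p under 0.05). The median log2 change of the 10 genes was 3.32, 3.77, 3.60 and 2.84 in that order of groups, while the median of all genes lay between -0.03 and 0.00. All libraries of each immunized group lay above the non-immunized ones for the 10 genes; of all genes tested 20% did so with OVA at 24 h, 19.4% with OVA at 12 h, 17.3% with CpG-only at 24 h and 21% with CpG-only at 12 h. The 4 comparisons share the same 2 non-immunized libraries. In bulk samples, more cells that express a gene and more RNA per cell cannot be told apart.

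Cell type markers moved in the same comparisons. Of 13 T cell markers, 10 (OVA 24 h), 9 (OVA 12 h), 3 (CpG-only 24 h) and 13 (CpG-only 12 h) were called lower than in non-immunized DC and 0 higher. Of 6 migratory DC markers, 6, 3, 5 and 6 were called higher in the same order of groups and 0 lower. Neutrophil markers summed to 14278 to 18137 CPM with CpG-only at 12 h, against 162 to 210.4 CPM in non-immunized DC, with 8 of 9 called higher; 1 was with OVA at 24 h, 3 with OVA at 12 h and 0 with CpG-only at 24 h. Of 12 conventional DC markers 5, 2, 4 and 7 were called higher, in the order given for T cell markers, and 1 was called lower (CpG-only 24 h). Of 10 monocyte and macrophage markers, 4 (OVA 24 h) and 5 (CpG-only 24 h) were called lower, and 4 higher in each group at 12 h. The other lists are given as sums in that order of groups, against non-immunized DC. Plasmacytoid DC markers stood at 398 to 588, 341 to 432, 577 to 822 and 381 to 554 CPM, against 691 to 729 CPM. B cell markers stood at 508 to 999, 933 to 1213, 570 to 2192 and 1051 to 1380 CPM, against 510 to 513 CPM. NK cell markers stood at 182 to 216, 181 to 310, 129 to 306 and 89.5 to 96.9 CPM, against 69.1 to 108 CPM. The part of these markers in the rise of the 10 genes was not tested.

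**Figure D1:**
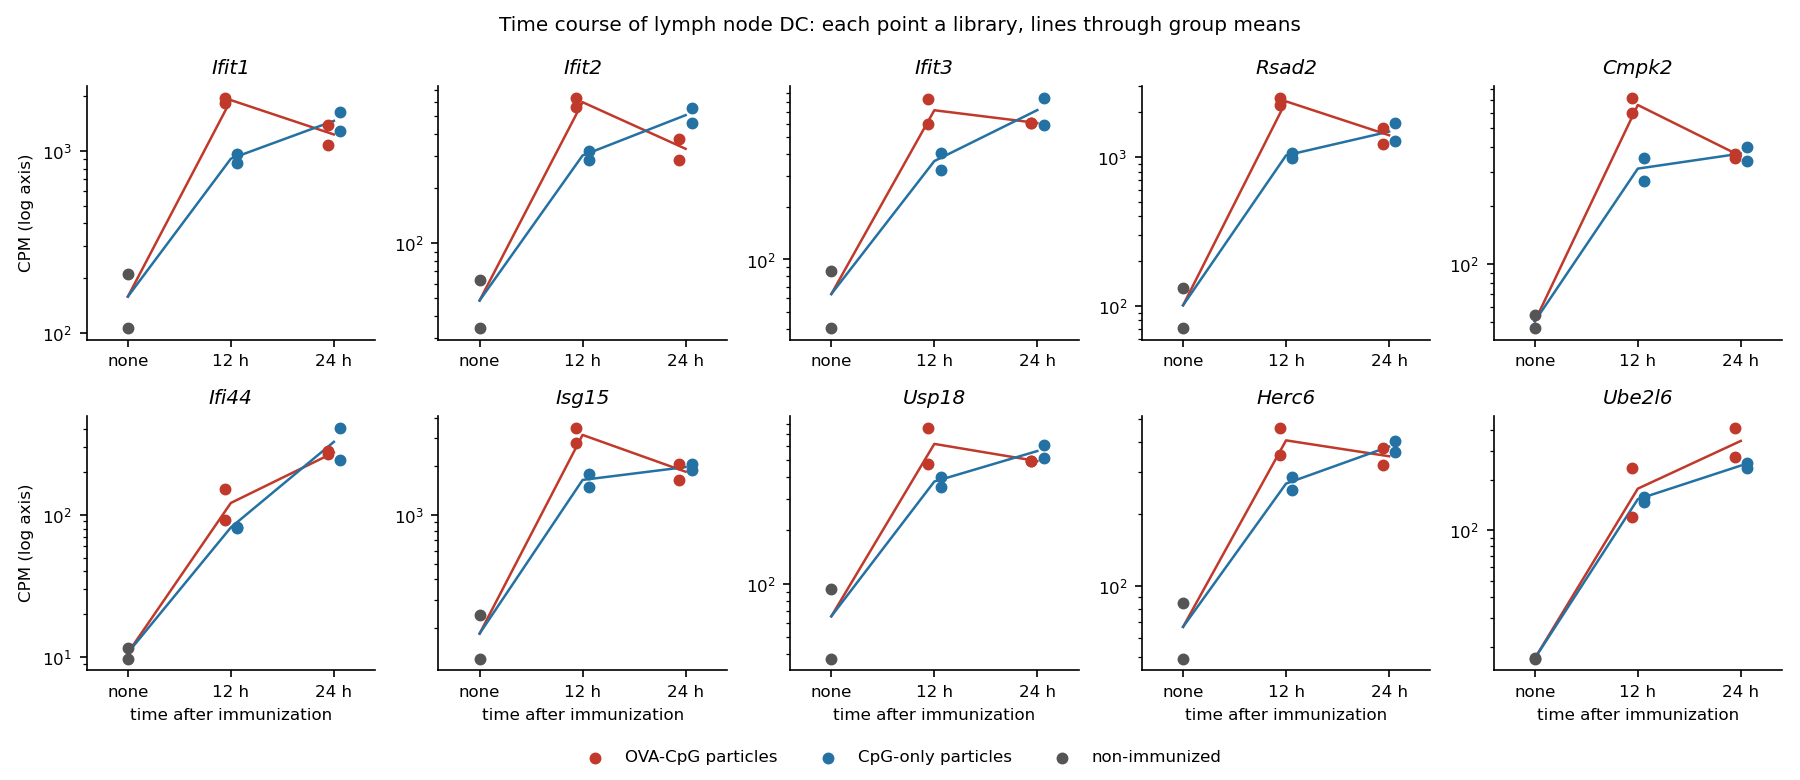
CPM (log axis) of the 10 genes in each time-course library against time after immunization, with non-immunized DC at the left; red marks OVA-CpG particles, blue CpG-only particles, and lines join group means. OVA libraries lie above CpG-only libraries at 12 h for 9 of the 10 genes, and the groups overlap for 7 of the 10 at 24 h; of all genes tested, 20.8% lie wholly above at 12 h and 64.1% overlap at 24 h.

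Among the IFIT genes, Ifit1, which binds viral RNA lacking the host's cap methylation, stood at 1393 and 1075 CPM at 24 h and 1844 and 1970.5 CPM at 12 h after OVA particles. It stood at 1649 and 1283 CPM at 24 h and 958 and 858 CPM at 12 h after CpG-only particles, against 210.4 and 106 CPM in non-immunized DC. The OVA libraries at 12 h were the highest and the non-immunized ones the lowest, with no overlap. The change at 12 h with OVA was a log2 of 3.81 ± 0.30, or 14.1-fold (edgeR adjusted p = 9.16e-07). Ifit2, an RNA-binding relative, stood at 374 and 287 CPM (24 h) and 632 and 560.1 CPM (12 h) with OVA, 456 and 556 CPM (24 h) and 321 and 287 CPM (12 h) with CpG-only, and 62.8 and 34.1 CPM without immunization. Its group means followed the same order, and the OVA 24 h values overlapped those of CpG-only at 12 h. Ifit3, whose human counterpart stabilizes IFIT1 on RNA, stood at 604 and 606 CPM (24 h) and 832 and 599.6 CPM (12 h) with OVA, 588 and 846 CPM (24 h) and 406 and 327 CPM (12 h) with CpG-only, and 86.4 and 40.4 CPM without immunization. Its OVA 12 h, OVA 24 h and CpG-only 24 h libraries overlapped. Of the 40-base windows of the Ifit3 transcript (GENCODE M21), 56.2% also occur in Ifit3b, so the split of reads between these copies is uncertain. Ifit3b itself changed by a log2 of 4.23 ± 0.38 with OVA at 12 h. Of the Ifit1 windows 8.48% occur in other genes, mainly Ifit1bl2 and Ifit1bl1. The gene model of Ifit1bl1 also overlaps Ifit1, so Ifit1 counts are uncertain to that extent.

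Rsad2 and Cmpk2 are adjacent genes on chromosome 12 that are transcribed away from each other. Rsad2, which encodes viperin, stood at 1579 and 1233 CPM (24 h) and 2518 and 2228 CPM (12 h) with OVA, 1696 and 1276 CPM (24 h) and 1069 and 988 CPM (12 h) with CpG-only, and 131 and 70.9 CPM without immunization. Its change of 4.77 ± 0.29 (log2; 27.3-fold, edgeR adjusted p = 1.82e-08) was the highest of the 10 genes with OVA at 12 h. Cmpk2, a mitochondrial nucleotide kinase, stood at 352 and 368 CPM (24 h) and 722 and 599.6 CPM (12 h) with OVA, 341 and 401 CPM (24 h) and 354 and 267 CPM (12 h) with CpG-only, and 54.6 and 46.7 CPM without immunization. Both Cmpk2 libraries at 12 h with OVA exceeded all others, and the remaining 6 immunized libraries lay between 267 and 401 CPM.

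In the ISG15 system, Isg15 itself stood at 2065 and 1646 CPM (24 h) and 3467 and 2803 CPM (12 h) with OVA, 2077 and 1888 CPM (24 h) and 1799 and 1501 CPM (12 h) with CpG-only, and 239.7 and 129 CPM without immunization. Its log2 change with OVA at 24 h was 3.55 ± 0.27 (edgeR adjusted p = 1.84e-07). Ube2l6, the conjugating (E2) enzyme for ISG15, stood at 411 and 275 CPM (24 h) and 235 and 119.9 CPM (12 h) with OVA, 237 and 251 CPM (24 h) and 149 and 158 CPM (12 h) with CpG-only, and 17.1 and 17.1 CPM without immunization. Unlike Isg15, it had its highest mean at 24 h with OVA. Herc6, the main ISG15 ligase of the mouse, changed least of the 10 in all 4 comparisons, by a log2 of 2.59 ± 0.24 (OVA 24 h), 2.83 ± 0.24 (OVA 12 h), 2.71 ± 0.24 (CpG-only 24 h) and 2.21 ± 0.24 (CpG-only 12 h). Of its 40-base windows 24.4% also occur in the gene model Gm45193. Of those of Isg15 and Ube2l6, 7.81% and 7.36% occur in other genes. Gene models overlap Herc6, Isg15 and Usp18 (Gm19244, Gm46878 and Gm44148), so these counts are uncertain to that extent. The Herc6 libraries lay between 252 and 461 CPM in immunized DC, against 84.8 and 49.4 CPM in non-immunized DC. Usp18, the protease that removes ISG15 and also restrains signalling from the interferon receptor, stood at 354 to 759 CPM in immunized DC, against 93.0 and 37.7 CPM without immunization. The activating enzyme Uba7 and the ligase Trim25, which are no members, were called higher in all 4 comparisons.

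Ifi44, an interferon-induced protein that restrains some viruses, followed another course. It stood at 266 and 280.3 CPM (24 h) and 151 and 91.3 CPM (12 h) with OVA, 407 and 242 CPM (24 h) and 82.3 and 80.6 CPM (12 h) with CpG-only, and 9.79 and 11.7 CPM without immunization. All 4 libraries at 24 h lay above all 4 at 12 h. The log2 change relative to non-immunized DC was 4.87 ± 0.33 with OVA and 5.09 ± 0.33 with CpG-only at 24 h (34.1-fold, edgeR adjusted p = 2.04e-08), the highest of the 10 genes at that time in both.

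Setting OVA particles against CpG-only particles asks what antigen adds to the adjuvant. At 12 h all 10 genes were higher in the mean with OVA, and 3 were called, against 0.923% of all genes called higher. The 3 were Rsad2 (log2 1.22 ± 0.24, edgeR adjusted p = 0.0126), Cmpk2 (1.10 ± 0.19, adjusted p = 0.00242) and Ifit2 (0.99 ± 0.22, adjusted p = 0.0208). Ifit1 (1.08 ± 0.27, edgeR adjusted p = 0.0503) and Isg15 (0.94 ± 0.24, adjusted p = 0.0536) had differences of similar size and missed the threshold. Ube2l6 differed least, by 0.25 with a 95% interval of -0.34 to 0.84, and was the gene whose groups overlapped. Without replicate 1 of OVA or replicate 2 of CpG-only there was no call, without either of the other 2 libraries there was 1, whereas DESeq2 called 6 of the 10. No share of all genes is given for these alternatives, so their counts are no result about the 10 genes alone. Cell type markers differed between the same groups. Neutrophil markers summed to 2547 to 2570 CPM with OVA, against 14278 to 18137 CPM with CpG-only, with 1 of 9 tested called lower. Migratory DC markers summed to 977 to 1217 CPM, against 3788 to 4187 CPM (3 of 6 called lower), and conventional DC markers to 3819 to 4254 CPM, against 6434 to 12904 CPM (3 of 12 called lower); the part of these in the result was not tested.

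At 24 h the 2 kinds of particle gave no called difference in any of the 10 genes by edgeR or DESeq2, with 1 of the 10 at an unadjusted p under 0.05, and 0.0106% of all genes were called. The log2 differences, OVA minus CpG-only, lay between -0.60 for Ifit2 (95% interval -1.07 to -0.13) and 0.51 for Ube2l6 (-0.05 to 1.07). Cmpk2 differed by -0.04 (-0.43 to 0.36), and the other 7 genes lay between -0.24 for Ifit3 and -0.06 for Rsad2. The test of that difference in differences, 24 h minus 12 h, was negative for 9 of the 10 genes and called for 2, against 0.87% of all genes called lower. These were Ifit2 (log2 -1.58 ± 0.32, edgeR adjusted p = 0.00637) and Cmpk2 (-1.14 ± 0.26, adjusted p = 0.0174). Rsad2 (-1.28 ± 0.34, edgeR adjusted p = 0.0516) and Ifit1 (-1.31 ± 0.37, adjusted p = 0.0783) were not called, and Ube2l6 was positive at 0.26 ± 0.38. Without replicate 1 of OVA at 12 h, or without replicate 2 of CpG-only at 12 h, neither call was made; 1 was without replicate 2 of OVA at 24 h, and 4 genes were called without either replicate of CpG-only at 24 h. Migratory DC markers summed to 4826 to 6115 CPM with OVA, against 2186 to 3271 CPM with CpG-only at 24 h (0 of 6 called), and in the difference in differences 5 of 6 were called higher (median log2 3.01). In the same test 2 of 12 conventional DC and 2 of 9 neutrophil markers were called higher and 2 of 13 T cell markers lower; the part of these in the result was not tested.

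Between 24 h and 12 h with OVA, the genes parted. Ifi44 (log2 1.14 ± 0.25, edgeR adjusted p = 0.00732) and Ube2l6 (0.92 ± 0.27, adjusted p = 0.0405) were higher at 24 h, and Cmpk2 (-0.89 ± 0.19, adjusted p = 0.00396) and Ifit2 (-0.86 ± 0.22, adjusted p = 0.0188) were lower, where 5.05% of all genes were called higher and 4.09% lower. The other 6 ranged from -0.76 for Isg15 to -0.24 for Herc6 and were not called. With CpG-only particles all 10 were higher in the mean at 24 h than at 12 h, and Ifi44 alone was called (log2 1.96 ± 0.27, edgeR adjusted p = 0.000146), where 3.59% of all genes were called higher. The 4 calls with OVA became 1 without replicate 2 at 12 h and 2 without replicate 1 at either time, and without replicate 1 of CpG-only at 24 h its 1 call became 3. Monocyte and macrophage markers fell over the same interval, to 908 to 946 CPM at 24 h against 2792 to 3037 CPM at 12 h with OVA, and to 865 to 1152 CPM against 2565 to 2876 CPM with CpG-only (10 and 8 of 10 tested called lower). With OVA, migratory DC markers were higher at 24 h, at 4826 to 6115 CPM, against 977 to 1217 CPM at 12 h (5 of 6 called), as were 2 of 12 conventional DC markers. With CpG-only, 6 of 9 neutrophil markers were called lower at 24 h than at 12 h and 8 of 13 T cell markers higher. The part of these in the differences was not tested.

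The rest of the pathway was read from lists. Of 28 other interferon-stimulated antiviral genes, 27 (OVA 24 h), 28 (OVA 12 h), 27 (CpG-only 24 h) and 26 (CpG-only 12 h) were called higher than in non-immunized DC and 0 lower. The GTPase Mx1, which blocks viral nucleocapsids, changed by a log2 of 3.61 ± 0.23 with OVA at 12 h, and the RNA sensor Ifih1 by 2.95 ± 0.22. In OVA against CpG-only at 12 h, 8 of the 28 were called higher and 0 lower (Parp14 0.82 ± 0.17, Ifih1 0.88 ± 0.20, Bst2 1.03 ± 0.23), and in the difference in differences 9 were called lower and 0 higher. Between 24 h and 12 h, 0 were called higher and 7 lower with OVA, and 8 higher and 1 lower with CpG-only, the last being Ifitm3, which blocks virus entry (-1.42 ± 0.23). Of 11 receptor and transducer genes tested, 4 rose and 2 fell with OVA at 12 h; Stat2 changed by 2.60 ± 0.27 and Ifngr1, a chain of the interferon-gamma receptor, by -0.88 ± 0.18. The 19 type I and type III interferon genes with rows were listed at 0 counts in all 33 DC libraries. If tags of these genes can be counted, that allows up to 1.46 CPM in the deepest library and 8.17 CPM in the shallowest (3 counts, counting error only). Whether they can was not tested. Interferon-gamma (Ifng) stood at 42.1 CPM in replicate 2 of CpG-only at 24 h and at 9.66 CPM or less in the other time-course libraries. In the 20 h experiment it ranged from 0.638 to 170 CPM with OVA and from 0.757 to 49.8 CPM with BSA.

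The 20 h experiment compared OVA and BSA particles, both with CpG, with no immunization in 5 libraries each. With OVA all 10 genes were called higher than in non-immunized DC, where 9.49% of 9159 genes were, with a median log2 change of 3.14 (all genes -0.01). With BSA 8 of the 10 were called higher, where 3.49% of all genes were, with a median of 2.23; without any 1 of replicates 1, 3 and 5 of BSA or 1, 2, 4 and 5 of the non-immunized DC, 3 to 5 were. Y-linked transcripts summed to 2.55 to 222 CPM with OVA (over 20 CPM in 2 of 5 libraries) and 0.757 to 9.55 CPM with BSA (0 of 5), against 5.96 to 301 CPM in non-immunized DC (3 of 5). With a term for libraries over 20 CPM, 3 of the 10 genes were called with BSA and 9 with OVA. Without that term, the 2 genes not called with BSA were Ifi44 (2.24 ± 0.76, edgeR adjusted p = 0.108) and Ube2l6 (1.50 ± 0.46, adjusted p = 0.0844). The comparisons share the non-immunized libraries. Cmpk2 passed the filter on low counts through immunized libraries alone, and Ifit2, Ifit3 and Ifi44 had some non-immunized libraries under it, so a count over the genes that passed leans toward those that rose; with no filter 9 were called with OVA and 5 with BSA.

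**Figure D2:**
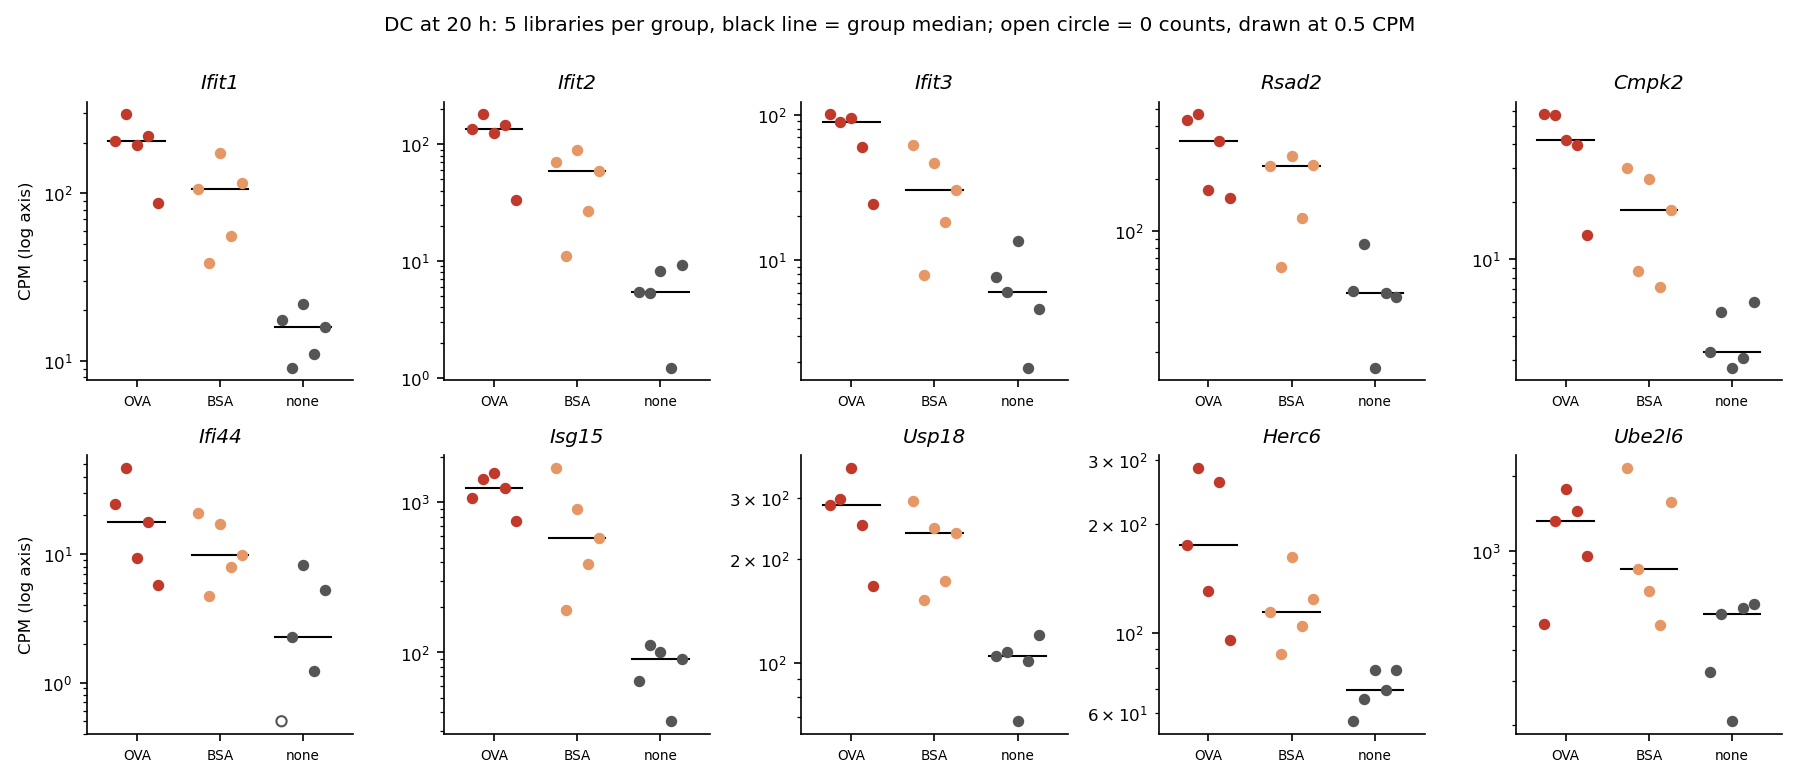
CPM (log axis) in each DC library of the 20 h experiment, with OVA left, BSA in the middle and non-immunized DC right; black lines are group medians and the open circle is 0 counts. The OVA and BSA libraries overlap for all 10 genes, and 8 of the 10 lie wholly higher with OVA than in non-immunized DC; of all genes tested, 99.3% overlap in the first pair and 3.84% lie wholly higher in the second.

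Ifit1 stood at 206, 297, 195, 219 and 87.5 CPM with OVA and 106, 38.6, 175, 55.7 and 115 CPM with BSA, against 17.5, 9.13, 21.8, 11.0 and 15.9 CPM in non-immunized DC. No immunized library overlapped the non-immunized ones, replicate 5 was the lowest with OVA and replicate 2 the lowest with BSA. The log2 change was 3.98 ± 0.48 with OVA (edgeR adjusted p = 0.000175) and 2.98 ± 0.48 with BSA (adjusted p = 0.00483). Ifit2 stood at 135, 181, 126, 147 and 33.2 CPM with OVA and 70.6, 11.0, 89.4, 27.1 and 59.0 CPM with BSA, against 5.47, 5.33, 8.17, 1.22 and 9.28 CPM without immunization, with the same libraries lowest. Its change with OVA, 4.63 ± 0.70 (24.7-fold), was the highest of the 10. Ifit3 changed by 3.89 ± 0.65 with OVA and 2.77 ± 0.68 with BSA. Its replicate 2 with BSA, at 7.87 CPM, lay within the non-immunized range of 1.83 to 13.6 CPM.

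Rsad2 stood at 435, 469, 173, 327 and 155 CPM with OVA and 235, 62.2, 271, 119 and 239.8 CPM with BSA, against 44.9, 83.7, 16.3, 43.9 and 41.7 CPM in non-immunized DC. Replicate 2 with BSA again lay below the highest non-immunized library. The log2 change was 2.82 ± 0.49 with OVA (edgeR adjusted p = 0.00213) and 2.09 ± 0.49 with BSA (adjusted p = 0.0289). Cmpk2 stood at 57.4, 56.7, 41.9, 39.7 and 13.4 CPM with OVA and 29.9, 8.66, 26.4, 7.16 and 18.2 CPM with BSA, against 3.28, 5.33, 2.72, 3.05 and 5.96 CPM without immunization. All 10 immunized libraries exceeded the 5 non-immunized ones. Ifi44 stood at 24.4, 46.9, 9.26, 17.7 and 5.75 CPM with OVA and 20.8, 4.72, 17.2, 7.96 and 9.83 CPM with BSA, against 0, 2.28, 8.17, 1.22 and 5.3 CPM, and its groups overlapped. Its change with OVA was 2.90 ± 0.72 (edgeR adjusted p = 0.0133).

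Isg15 stood at 1064, 1428, 1565, 1248 and 756 CPM with OVA and 1698, 193, 909.7, 388 and 580.2 CPM with BSA, against 64.6, 113, 100.8, 34.8 and 90.8 CPM in non-immunized DC. The groups with particles lay wholly above those without, and replicates 1 and 2 with BSA were the highest and the lowest of the 10 immunized libraries. Its changes of 4.08 ± 0.59 with OVA (edgeR adjusted p = 0.000687) and 3.43 ± 0.58 with BSA (adjusted p = 0.00665) stood beside smaller ones in its partner enzymes. Usp18 changed by 1.56 ± 0.20 and 1.26 ± 0.20, Herc6 by 1.58 ± 0.26 and 0.92 ± 0.26, and Ube2l6 by 1.53 ± 0.46 and 1.50 ± 0.46, with OVA and with BSA in that order. Usp18 had the smallest adjusted p of the 10 with OVA (edgeR adjusted p = 5.03e-05), with libraries from 167 to 365 CPM, against 68.1 to 121 CPM in non-immunized DC. Ube2l6 stood at 510.0, 1320.2, 1775, 1454 and 958 CPM with OVA and 2161, 851, 694, 506 and 1579.6 CPM with BSA, against 327, 560.0, 207, 588 and 612 CPM, and its call with OVA (adjusted p = 0.0409) held in 4 of 18 alternative settings. Non-immunized DC of the time course had 17.1 and 17.1 CPM of Ube2l6; the experiments were counted separately and this difference in level was not tested.

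Between OVA and BSA at 20 h all 10 genes were higher in the mean with OVA, by a median log2 of 0.70, and none was called by edgeR or DESeq2, as for all 9159 genes (0% called). Unadjusted p-values were under 0.05 for 5 of the 10, and for 544 of all genes. The differences were 1.23 ± 0.50 for Ifit2, 1.16 ± 0.37 for Cmpk2 (edgeR adjusted p = 0.76), 1.01 ± 0.38 for Ifit1 and 0.73 ± 0.44 for Rsad2. Herc6 differed by 0.67 ± 0.24 (95% interval 0.16 to 1.17) and Isg15 by 0.65 ± 0.50 (-0.44 to 1.74), while Ube2l6 differed by 0.03 (-0.94 to 1.00). Monocyte and macrophage markers summed to 134 to 325 CPM with OVA and 207 to 371 CPM with BSA, against 709 to 2198 CPM in non-immunized DC, where 7 of the 8 tested were called lower in each comparison. Migratory DC markers summed to 18089 to 24356 CPM, 13884 to 20968 CPM and 9992 to 16504 CPM in the same order; the part of either in the results was not tested. Of the 28 other antiviral genes 25 were called higher with OVA and 16 with BSA.

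**Figure D3:**
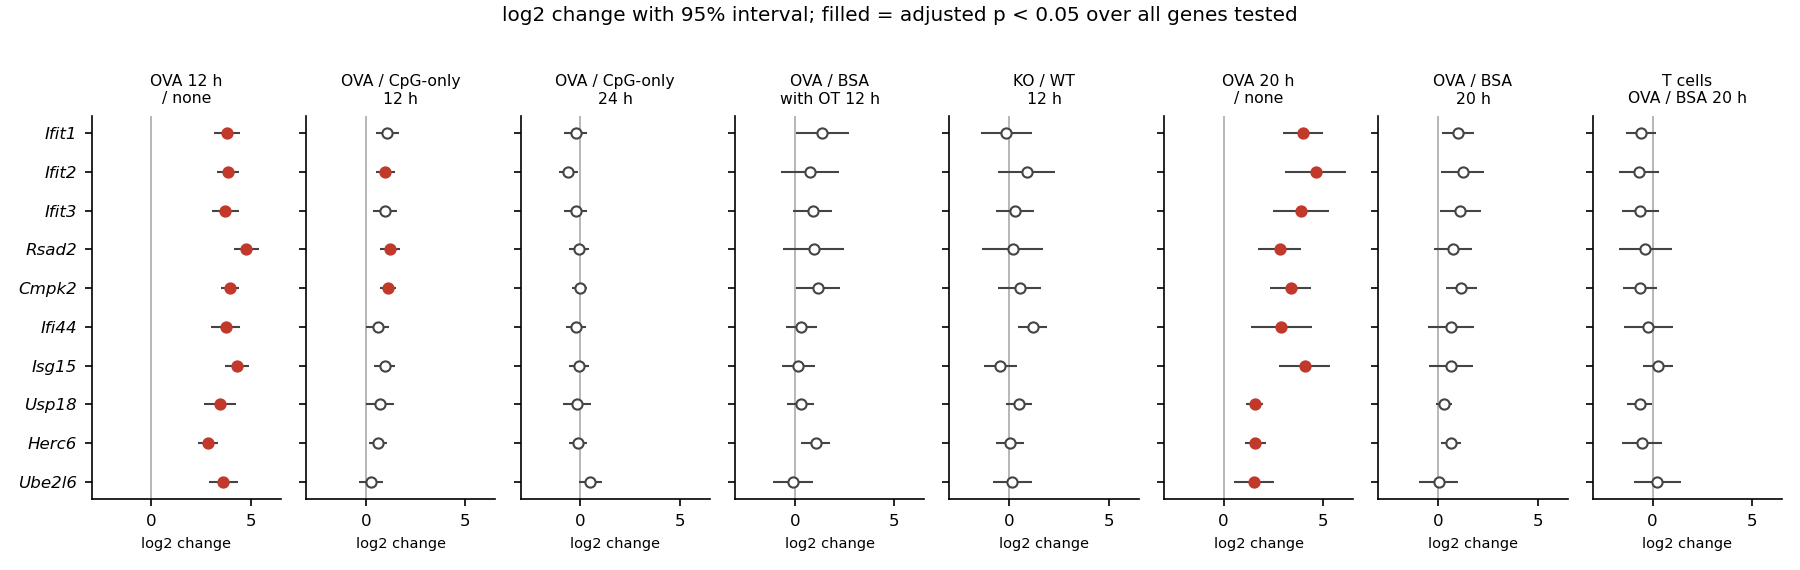
log2 change (x axis) with its 95% interval for the 10 genes (rows) in 8 comparisons (panels); filled circles mark adjusted p under 0.05. All 10 are filled for OVA against non-immunized DC at 12 h and at 20 h, 3 for OVA against CpG-only at 12 h, and none in the panels for 24 h, BSA with OT cells, the knockout, OVA against BSA at 20 h and T cells.

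The costimulation experiment asked what OT cells, antigen and the ligands Cd80 and Cd86 contribute at 12 h, and had no non-immunized group. In Cd80/86 -/- against wild-type DC, both with OVA and OT cells, edgeR and DESeq2 called none of the 10 genes, and edgeR none of 9355 genes (0%). Ifi44 alone of the 10 had an unadjusted p under 0.05, as did 1059 of all genes. It stood at 183 and 109 CPM in knockout DC, against 70.1 and 53.8 CPM in wild-type DC, without overlap (log2 1.18 ± 0.34, edgeR adjusted p = 0.276). Of the 10 genes 4 lay wholly higher and 1 wholly lower in knockout DC, against 28.8% and 22.7% of all genes tested. For the 9 genes other than Ifi44 the differences lay between -0.44 for Isg15 and 0.87 for Ifit2. Plasmacytoid DC markers summed to 1527 to 1699.9 CPM in knockout DC, against 275 to 314 CPM in wild-type DC, and were higher in the mean for 7 of 7 genes with 0 called. Monocyte and macrophage markers summed to 7873 to 9593 CPM in knockout DC, against 4920 to 4945 CPM. Migratory DC markers summed to 3874 to 4669 CPM, against 8266 to 9855 CPM. The part of these markers in the result was not tested.

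With OT cells against without, in wild-type DC given OVA, none of the 10 was called by edgeR or DESeq2, where 2.88% of all genes were, and Ifi44 again had the only unadjusted p under 0.05. It stood at 70.1 and 53.8 CPM with OT cells, against 168 and 122 CPM without (log2 -1.17 ± 0.34, edgeR adjusted p = 0.0871). Leaving out replicate 2 without OT cells, 1 gene was called. Ifit1 stood at 1071 and 1457 CPM with OT cells, against 1456 and 831 CPM without, with overlap. All 6 NK cell markers were called lower with OT cells (summed 26.3 to 130.2 CPM, against 2048 to 5411 CPM without). Ifng stood at 22.8 and 0 CPM, against 660.4 and 2220.2 CPM. Plasmacytoid DC markers also summed lower with OT cells, at 275 to 314 CPM, against 1112 to 3035 CPM. Monocyte and macrophage markers did so too, at 4920 to 4945 CPM, against 5607 to 11685 CPM. Migratory DC markers summed higher, at 8266 to 9855 CPM, against 1870 to 3513 CPM. Conventional DC markers did as well, at 12587 to 13577 CPM, against 6075 to 10926 CPM. The part of all these in the result was not tested.

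With OT cells, OVA against BSA gave no call among the 10 by edgeR or DESeq2, where 0.0107% of all genes were called, with 9 of the 10 positive and a median log2 of 0.83. Herc6 stood at 228 and 197 CPM with OVA, against 121 and 94.3 CPM with BSA, without overlap (log2 1.06 ± 0.34, edgeR adjusted p = 0.488). Of the 10 genes 6 lay wholly higher with OVA, Herc6, Ifit1 and Cmpk2 among them, against 16.1% of all genes tested. Ifit1 stood at 1071 and 1457 CPM with OVA, against 779.8 and 211 CPM with BSA (1.39 ± 0.59, edgeR adjusted p = 0.538), and Cmpk2 at 293 and 277 CPM, against 194 and 69.6 CPM (1.17 ± 0.50, adjusted p = 0.545). These were the 3 genes with an unadjusted p under 0.05, and 821 of all genes had one. Without replicate 1 of BSA, 2 genes were called. The BSA libraries differed from each other: replicate 3 was the lower for 9 of the 10 genes, with Ifi44 the exception, and carried plasmacytoid DC markers at 4010 CPM, against 159 CPM in replicate 1. Ifng stood at 3.54 CPM in replicate 3, against 181 CPM in replicate 1. The part of either in the values was not tested. Isg15, at 1981 and 2501 CPM with OVA against 2548 and 1583 CPM with BSA, and Ube2l6, at 449 and 337 CPM against 586 and 284 CPM, overlapped. The 3 comparisons share the wild-type libraries with OVA and OT cells.

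**Figure D4:**
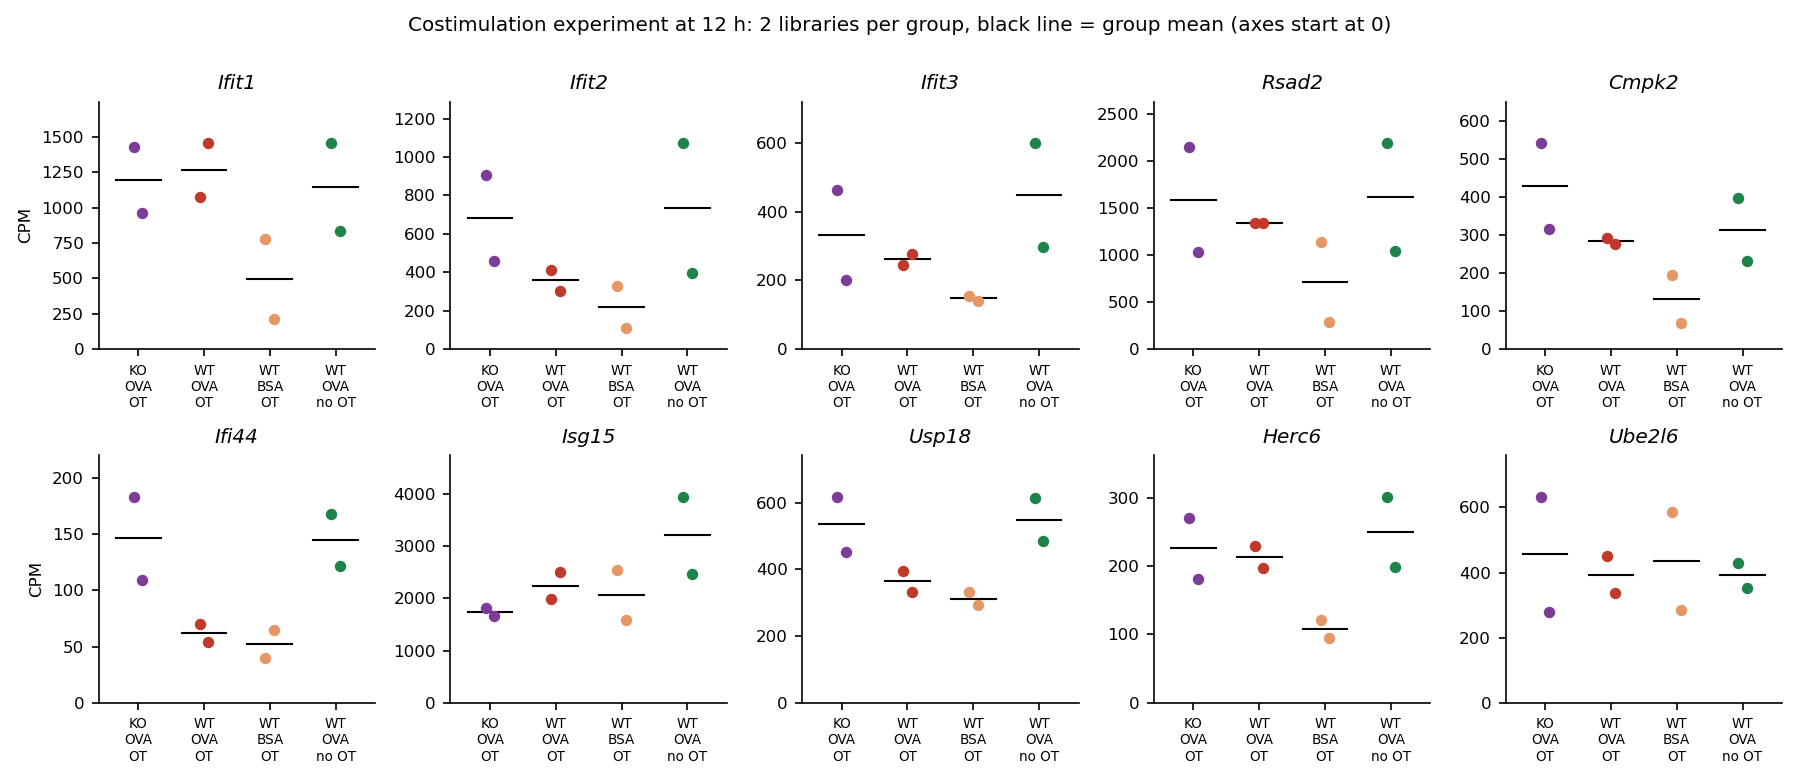
CPM (axes from 0) of the 10 genes in each library of the costimulation experiment at 12 h, with 2 libraries per group and black lines at group means; KO is Cd80/86 -/-, WT wild type. Ifi44 stands at 183 and 109 CPM in knockout DC, above the 70.1 and 53.8 CPM of wild-type DC with OVA and OT cells. That difference was not called (edgeR adjusted p = 0.276), and wild-type DC with OVA alone stand at 168 and 122 CPM. In knockout against wild-type DC with OVA and OT cells, 4 of the 10 genes lie wholly higher and 1 wholly lower. Of all genes tested, 28.8% lie wholly higher and 22.7% wholly lower.

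CD4+ OT-II T cells from mice given OVA or BSA particles were compared at 20 h on the deposited normalized counts with limma on log2(value + 1). None of the 10 genes was called, where 16.7% of 6452 genes were. On whole counts recovered from the values none was called by edgeR (1213 genes called) or DESeq2 (821 genes). Levels overlapped between the groups for all 10 genes, as they did for 63% of all genes tested. In the mean 8 of the 10 were lower with OVA, and Usp18 alone had an unadjusted p under 0.05, as did 2121 of the 6452 genes. Usp18 stood at 69.3, 129 and 87.1 normalized counts with OVA, against 184, 92.7 and 174 with BSA (log2 -0.64 ± 0.29, limma adjusted p = 0.146). Ifit1 stood at 144, 294 and 155 normalized counts with OVA, against 307, 180.1 and 403 with BSA (-0.58 ± 0.34, 95% interval -1.34 to 0.18). Cmpk2 stood at 18.9, 41.7 and 30.9 with OVA, against 65.3, 23.8 and 59.1 with BSA (-0.62 ± 0.39, -1.46 to 0.22). Isg15, at 825, 913 and 444 with OVA against 725, 376 and 683 with BSA, was higher in the mean with OVA, as was Ube2l6, at 16.8, 39.7 and 14.8 against 38.6, 7.94 and 18.3.

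Replicate 2 with OVA was the highest of its group and replicate 2 with BSA the lowest of its group for all 10 genes. Without replicate 2 of OVA, 4 of the 10 genes were called lower with OVA, and without replicate 2 of BSA, 3 were. Across the fits with 1 T cell library left out, 430 to 1515 of all genes were called. These member counts are therefore no result about the 10 genes alone. Conventional DC markers summed to 776, 2901 and 1854 normalized counts in replicates 1, 2 and 3 with OVA, against 3136, 2386 and 2575 with BSA, and 4 of the 6 tested were lower in the mean with OVA (median log2 -0.95). The 2 that were higher, Irf4 (2.38 ± 0.32, limma adjusted p = 0.00108) and Irf8 (1.42 ± 0.32, adjusted p = 0.0133), encode transcription factors that T cells can also express, and were the 2 called. The OVA library with the highest antiviral levels was also the one with the highest sum of its group. Replicate 2 with BSA had the lowest such sum of its group and was also the shallowest library, at 155088 counts. B cell, monocyte and macrophage, and plasmacytoid DC markers went the same way. Their sums were highest in replicate 2 with OVA (648, 501 and 284 normalized counts) and lowest in replicate 2 with BSA (445, 236 and 196). Migratory DC markers did so with BSA but not with OVA. The part of depth or of these markers in the result was not tested. Among the other antiviral genes 0 of 27 tested were called, and of the 11 receptor and transducer genes 2 were called lower, Ifngr2 (-1.31 ± 0.34, limma adjusted p = 0.0199) and Irf9 (-0.76 ± 0.22, adjusted p = 0.0289).

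**Figure D5:**
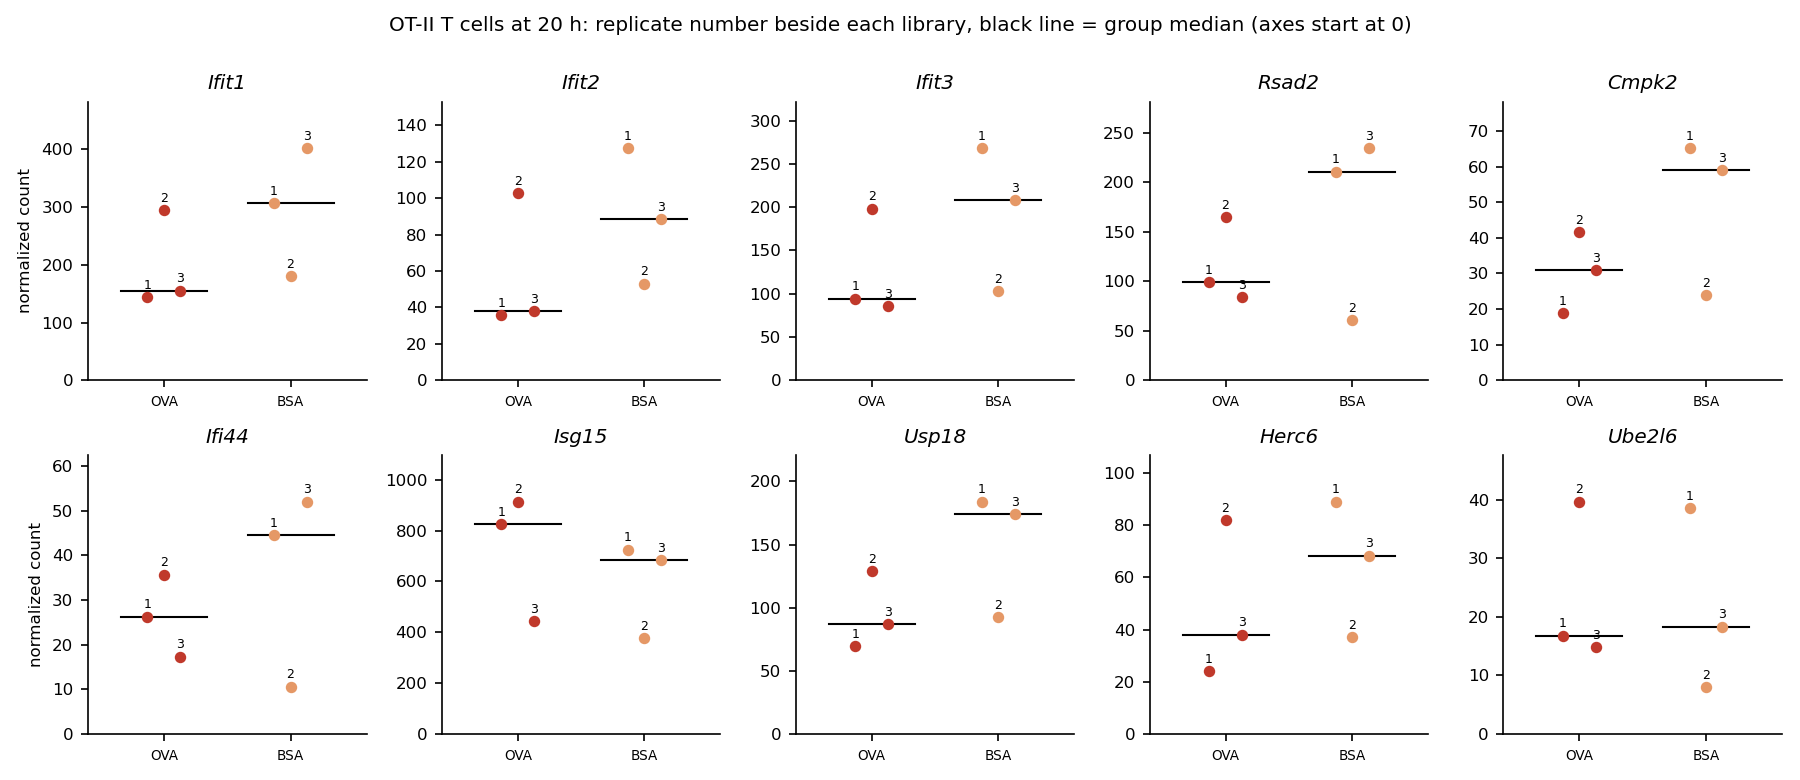
Normalized counts (axes from 0) of the 10 genes in each OT-II T cell library at 20 h, OVA left and BSA right, with the replicate number at each point and a black line at the median. Replicate 2 is the highest OVA library and the lowest BSA library in every panel.

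Across the 33 DC libraries, with log2(CPM + 1) centred within each experiment, the 45 pairs among the 10 genes had Pearson's r between 0.66 (Ifit2 with Ube2l6) and 0.96, with a median of 0.87. These values describe libraries that share groups, depth and cell mixtures, and carry no test. Each gene was set against the mean of the other 9: Cmpk2 (0.96), Ifit1 (0.95), Ifit2 (0.95) and Ifit3 (0.95) were closest, and Ifi44 (0.85) and Ube2l6 (0.77) were farthest. The neighbours Rsad2 and Cmpk2 had an r of 0.94. Among 7169 genes ranked by likeness to the mean of all 10, those highest outside the list were Mx2 (0.97), Oasl1 (0.96), Parp14 (0.95), Isg20 (0.94), Parp12 (0.94) and Dhx58 (0.94). Ube2l6 and Ifi44, the 2 least like the others, were the 2 called higher at 24 h than at 12 h with OVA. The likeness was computed over those same libraries among others, so these are not separate observations.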

How the data were processed

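Messenger RNA of sorted cells was captured by its polyA tail, amplified by transcription in vitro and sequenced from the 3' end. Per the submitters' processing notes, bcl2fastq, HISAT 0.1.6, HOMER and the mouse build mm9 were used, with no order given. The 3 DC tables hold raw counts per gene as deposited, and the first block of library columns was used. The T cell table holds deposited normalized counts (a signal), which are whole counts divided by a factor per library. Whole counts were thus recovered for 100% of the values within 0.01 of a whole number. Another 4 columns, from 2 libraries outside the labels used here, were left out.

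Groups came from the sample labels. Each DC experiment was fitted on its own with edgeR 4.0.16 (R 4.3.3), using TMM scaling, filterByExpr and the robust quasi-likelihood test, with 1 coefficient per group. T cells were fitted with limma 3.58.1 on log2(value + 1) for genes at 10 or more in at least 3 libraries. Fold changes of low genes are understated on that scale. Adjustment for multiple tests followed Benjamini-Hochberg and took in every gene tested, with a threshold of 0.05, and the errors given are standard errors of the log2 change. The scripts were tested on simulated data. Alternatives were DESeq2 1.42.0, other scalings, filters and pseudocounts, a replicate term, fits on the compared groups alone, and each library left out in turn.

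All 10 genes were named in every experiment, and of each pathway list up to 3 called genes of smallest adjusted p. Likeness was ranked over genes averaging 10 CPM or more in every DC experiment. Members and lists were chosen with earlier results of these data known. No coordinates of the files' build were used, and the promoter windows come from another build.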

Additional observations from a re-analysis of the deposited data

Results flagged for a closer look

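The difference between OVA and CpG-only particles was not the same at 24 h as at 12 h for 2 of the 10 genes, by the interaction term of the edgeR fit. For Ifit2 the OVA minus CpG-only difference was -0.60 at 24 h and 0.99 at 12 h, and the change between them was -1.58 ± 0.32 (log2, edgeR adjusted p = 0.00637). For Cmpk2 it was -0.04 at 24 h and 1.10 at 12 h, and the change between them was -1.14 ± 0.26 (edgeR adjusted p = 0.0174). Each of the 4 groups had 2 libraries. Migratory DC markers moved in the same test, with 5 of 6 called higher and a median log2 of 3.01, and their part in the result was not tested. In groups of 4 to 10 libraries no gene had a library standing far from the others, in 30 pairs of a gene and a group tested. Only the 20 h DC groups, of 5 libraries each, were large enough for this. Chance flags about 1 in 20 such pairs, but the 10 genes share the same libraries, so the pairs are not independent.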

How the results depend on the processing

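All 10 genes were called higher than in non-immunized DC in the 4 time-course groups under every alternative, and 9 to 10 were with OVA at 20 h. Other counts moved with the settings. OVA against CpG-only at 12 h (3 calls) gave 6 with DESeq2, 8 with no filter on low counts, 5 with a mean of at least 1 CPM, 7 with only the compared groups in the fit, and 0 to 1 with each library left out in turn. CpG-only at 24 h against 12 h (1 call) gave 2 with DESeq2, 5 with no filter, 2 with a minimum mean of 1 CPM and 1 to 3 with a library left out. OVA at 24 h against 12 h (4 calls) gave 7 with no filter, 7 with only the compared groups and 1 to 3 with a library left out, the lowest without replicate 2 of OVA at 12 h. The difference in differences (2 calls) gave 4 with DESeq2, 7 with no filter, 5 with only the compared groups and 0 to 4 with a library left out, the highest without either replicate of CpG-only at 24 h. OT cells against none (0 calls) gave 1 with no filter, 1 with only the compared groups and 0 to 1 with a library left out. OVA against BSA with OT cells (0 calls) gave 1 with no filter and 0 to 2 with a library left out. The knockout against wild type (0 calls) gave 1 with no filter and 1 with only the compared groups. BSA at 20 h against non-immunized DC (8 calls) gave 5 with no filter, 3 with a term for libraries with Y-linked transcripts and 3 to 8 with a library left out, the lowest without replicate 1 of BSA or replicate 1 or 4 of the non-immunized DC. T cells (0 calls) gave 0 to 4 with a library left out. The cause was not tested.

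Some signs changed with a library left out. Ube2l6 in OVA against CpG-only at 12 h ranged from -0.36, without replicate 1 of OVA at 12 h, to 0.64. In the difference in differences it ranged from -0.13, without replicate 2 of OVA at 12 h, to 0.87, and was -0.11 without replicate 1 of OVA at 24 h. Usp18 in OVA at 24 h against 12 h ranged from -0.64 to 0.030, the last without replicate 1 of OVA at 12 h.

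The replicate numbers were tried as a block. Deviations of same-numbered libraries correlated at -0.05 to 0.15 in the time course and -0.06 to 0.18 in the costimulation experiment. In groups of 2 libraries the deviations mirror each other, so these values cannot decide whether the numbers pair the libraries. The correlations were -0.14 to 0.17 at 20 h and -0.12 to 0.05 in T cells. For differently numbered libraries they were -0.25 to 0.33 and -0.11 to 0.12. With the block, OVA against CpG-only at 12 h gave 5 calls, CpG-only at 24 h against 12 h 4, OVA at 24 h against 12 h 7, the difference in differences 5, OT cells against none 1 and BSA at 20 h against non-immunized DC 5.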
